A study of Mus musculus with 32 samples.

Results

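Double-mutant (DM) mice carry 1 deleted copy of *Kmt2a* and no working *Kdm5c* (*Kmt2a*+/-, *Kdm5c*-/y), and their hippocampal RNA was compared with that of wild-type (WT) males (*Kmt2a*+/+, *Kdm5c*+/y). The comparison used 8 of the 32 libraries of the series, 4 of DM and 4 of WT, and every gene of the deposited table except the spike-in sequences (ERCC). All mice were adult male F1 hybrids (strain label 129xB6) of 129S1/SvImJ *Kmt2a*+/- fathers and C57BL/6J *Kdm5c*+/- mothers, so the groups share a hybrid background and the WT mice carry neither deletion. The *Kmt2a* allele was made by crossing a floxed line to a line with an inducible Cre (cre/ERT2) at the ROSA26 locus, the *Kdm5c* allele is a knockout held on C57BL/6J, and both are inherited, so neither is limited to neurons. The other 8 hippocampal libraries were from *Kmt2a*-HET mice (*Kmt2a*+/-, *Kdm5c*+/y) and *Kdm5c*-KO mice (*Kmt2a*+/+, *Kdm5c*-/y) of the same cross, 4 each, and the amygdala was taken from the same mice. The hippocampus was microdissected and sequenced in bulk, so fewer cells of a type and less RNA per cell cannot be told apart in any value below.

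KMT2A adds methyl groups to lysine 4 of histone H3 (H3K4), a mark of active promoters and enhancers, and is known as a coactivator of transcription. KDM5C, encoded on the X chromosome, removes that mark and is known for holding germline and other tissue-restricted genes silent in neurons. In the hippocampus, a structure of pyramidal neurons, granule neurons, interneurons and glia that is required for spatial and contextual memory, both enzymes are expressed widely, and the DM mice ask how expression stands when writer and eraser are reduced together.

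Gene counts per library ranged from 20512181 to 27798980, and 3 counts, the floor below which a gene was taken as not detectable, corresponded to 0.108 to 0.146 CPM (counting error only). The study used 4 animals per genotype, so the spread below is that between animals. The WT and DM libraries took 0.0503 to 0.295% of their counts from ERCC RNA and 4.05 to 5.75% from mitochondrial genes. Markers of CA1, CA2, CA3 and dentate gyrus were detected in all 8 libraries, for example *Wfs1*, *Rgs14*, *Bok* and *Prox1*, with summed levels that overlapped between genotypes. Summed markers of the choroid plexus, a ventricular epithelium next to the hippocampus, stood at 5325, 940, 25510 and 5240.3 normalised counts in WT against 1156, 27601, 1165 and 27852 in DM, so DM replicates 2 and 4 and WT replicate 3 stood high and the groups overlapped. None of the 10 choroid plexus markers was called by DESeq2 or edgeR, and 1 had an unadjusted p under 0.05, with a median log2 fold change of 1.34 that was -2.61 without DM replicates 2 and 4. Summed markers of the thalamus, which lies under the hippocampus, were 964, 1328, 1666 and 1031 in WT and 1860.5, 2053, 2917 and 1689.9 in DM, so that every DM library was above every WT library. Of 5 thalamus markers tested 0 were called by DESeq2 or edgeR, 1 (*Prkcd*, at 1.28) had an unadjusted p under 0.05, and their median was 0.35, which was -0.05 with ERCC size factors and 0.64 without DM replicates 2 and 4. The part of thalamic RNA in the results was not tested. On principal components of the 16 hippocampal libraries *Kdm5c*-KO replicate 1 stood apart on PC1, which held 34.97% of the variance, and WT replicate 4 was the highest on PC2, which held 17.5%.

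Levels are given as normalised counts, that is deposited expected counts per gene divided by the DESeq2 size factor of the library. Differences are log2 fold changes of DM over WT with their standard error, from the DESeq2 Wald test on all 16 hippocampal libraries, and a gene counts as called below 0.1 after Benjamini-Hochberg adjustment.

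The targeted genes were examined first. *Kmt2a* (chromosome 9, 44803355 to 44881296, mm10) stood at 3191, 5919, 3654 and 4522 in WT and at 2971, 5854, 4125 and 4968 in DM. The groups overlapped throughout, and the log2 fold change was 0.05 ± 0.24 (SE, adjusted p = 0.985). *Kdm5c* (chromosome X, 152233020 to 152274535) stood at 1482, 1888, 1426 and 1549 in WT and 1343, 1430.5, 1331 and 1394 in DM. The means were 1586 ± 208 and 1374 ± 46.3 (SD, n = 4), DM replicate 2 lay just above the lowest WT library, and the difference of -0.21 ± 0.09 (SE, adjusted p = 0.487) did not pass the threshold. The deposited values are whole-gene counts, which include the exons that the deletions leave in place, so they do not check the genotypes at the deleted exons. Of the deposited transcripts, the main *Kmt2a* isoform took 90.1% of the gene's counts in WT and 85.4% in DM, and the main *Kdm5c* isoform 47.3% and 51.8%.

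Of 19302 genes tested, 170 were called, which is 0.881% of the genes tested. 137 of these were higher in DM (0.71%) and 33 were lower (0.171%), so that 80.6% of the calls were increases. The median log2 fold change was 1.15 among the genes called higher, from 0.26 to 6.47, and 78 of them exceeded 1. Among the genes called lower the median was -0.65, and 8 were below -1. The genes called higher were expressed at a median of 105 normalised counts in WT and 209 in DM, against 438 and 289 for those called lower, and 22 of the 137 had a WT mean under 10. In 128 of the 137 every DM library lay above every WT library, and in 29 of the 33 every DM library lay below, where 2.65% and 2.18% of all tested genes were separated in these ways. By annotated type, 113 of the genes called higher were protein-coding, 11 were lincRNAs and 5 antisense RNAs, and 32 of the 33 genes called lower were protein-coding. Of these calls, edgeR's quasi-likelihood test made 56 of the 137 and 7 of the 33 (it called 0.368% of the genes it tested). With ERCC size factors 6 genes were called, all of them increases among the 137, and 25 of the 137 had a negative log2 fold change. Without *Kdm5c*-KO replicate 1, 229 genes were called, which held all 137 and 33. Without DM replicates 2 and 4, the libraries high in choroid plexus RNA, 90 genes were called, 71 higher and 19 lower, and these held 65 of the 137 and 9 of the 33. Of the 66 genes followed by name through the alternatives, which include both targeted genes, 24 were no longer called without these libraries and 18 without WT replicate 4.

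**Figure D1:**
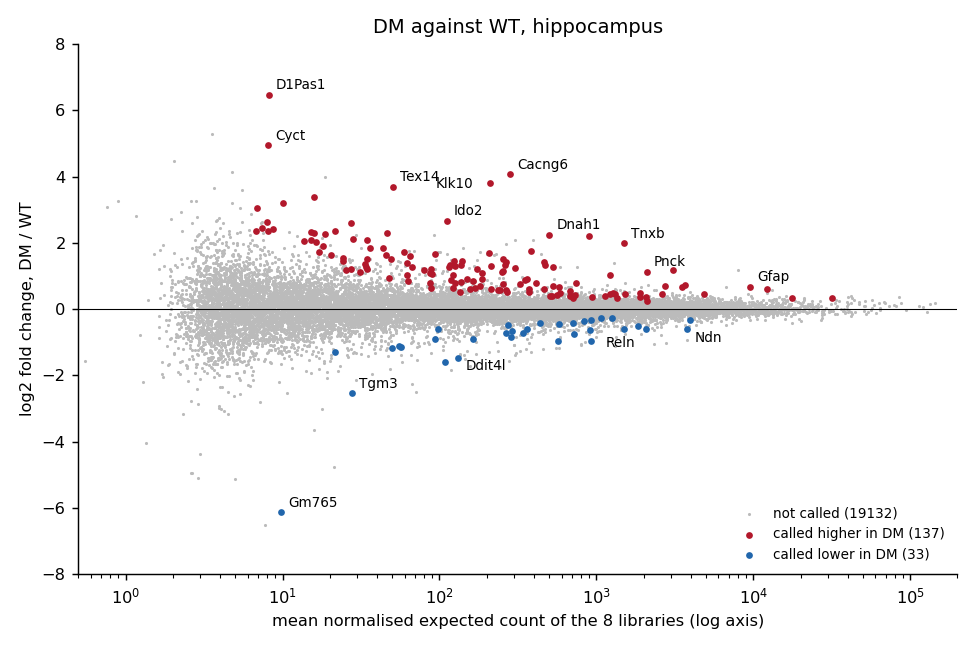
Log2 fold change of DM over WT (vertical axis) against the mean normalised expected count of the 8 libraries (horizontal, log axis) for 19302 genes, with 137 genes called higher in red and 33 called lower in blue. Most called genes lie above 0, and the largest changes, D1Pas1 at 6.47 and Gm765 at -6.12, are those of genes with few counts.

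Germline genes are known as targets of KDM5C, and 27 of the 52 listed passed the filter on low counts and were tested. 4 of them rose and none fell, where 0.71% of all tested genes were called higher. The filter used the mean over all 16 libraries, and *D1Pas1* and *Cyct*, near 0 in WT and *Kmt2a*-HET (0.233 ± 0.466 and 0.548 ± 1.10), had most of their counts in DM and *Kdm5c*-KO (11.3 ± 2.74 and 8.92 ± 3.22 in the latter, SD, n = 4), so nothing is read from the share called or from a median of the 27. ERCC size factors moved the median log2 fold change of all tested genes from 0.00 to -0.55. *D1Pas1*, which encodes a DEAD-box RNA helicase of the testis, had 0, 0, 0 and 0 in WT and 16.1, 9.25, 14.02 and 26.1 in DM. No WT library held a count, and the 70 counts of the 4 DM libraries together lay at least 21.6-fold above a floor of 3 counts over the 4 WT libraries (adjusted p = 1.33e-05). *Cyct*, the cytochrome c of sperm, had 1.12, 0, 1.08 and 0 in WT and 16.9, 9.25, 14.02 and 21.9 in DM. It rose in every DM mouse, from 2 counts in all WT libraries to 67 in DM, a ratio of 31.0 with a 95% counting interval of 8.25 to 261 (adjusted p = 0.00351). *Tex14*, needed for the bridges between dividing germ cells, stood at 12.4, 5.75, 6.49 and 5.09 in WT and 89.7, 85.1, 110.4 and 87.6 in DM. The groups were far apart, by 3.69 ± 0.33 (SE, adjusted p = 1.28e-24). *Naa11*, the testis form of a protein acetyltransferase subunit, stood at 2.25, 2.88, 1.08 and 1.70 in WT and 27.9, 3.70, 22.8 and 17.7 in DM. DM replicate 2 lay close to the WT range, and the log2 fold change was 3.19 ± 0.89 (SE, adjusted p = 0.056). *D1Pas1*, *Cyct* and *Naa11* have close relatives that are expressed in all cells, and reads shared with them could be split differently by another counter.

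The other 23 tested germline genes were not called. *Sycp3*, a component of the synaptonemal complex, and *Mei1* are named after their values were seen. *Sycp3* had the log2 fold change 1.61 ± 0.55 (SE, adjusted p = 0.229), and *Ddx4*, the germ cell helicase, 0.63 ± 0.28 (SE, adjusted p = 0.497). *Brdt* and *Dazl* differed by 0.03 and -0.06. *Mei1*, a meiotic gene, was at 23.6, 32.6, 34.6 and 76.4 in WT and 15.2, 19.4, 16.6 and 15.6 in DM. All 4 DM libraries lay below the WT libraries, and its log2 fold change of -1.33 ± 0.57 (SE, adjusted p = 0.488) was not called. Outside the list, 4 further genes of meiosis and the germline were called higher, and they were picked after their values had been seen. *Ccnb1ip1*, a factor of meiotic crossovers, rose from 2.86 ± 1.47 to 28.8 ± 15.7 (SD, n = 4). *Hsf2bp*, a meiotic recombination factor, rose from 7.05 ± 5.91 to 36.1 ± 13.2. *Rnf17*, a Tudor protein of spermatids, rose from 12.2 ± 3.33 to 36.0 ± 9.76, and *Mcmdc2*, which acts in meiotic recombination, from 16.7 ± 3.54 to 38.0 ± 12.7.

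The promoters of 3 of the 4 germline genes called higher are printed because these genes were low in WT and rose together. That of *Naa11*, with 12 CpG and an E2F match, is not printed because its window overlaps an annotated transcript of the same gene. Each printed window is the run of 250 bases before the RefSeq start on GRCm38.p6, read on the strand of the gene. It lies outside the annotated transcripts of that gene, and overlap with transcripts of other genes was not examined. *D1Pas1* is on the + strand at chr1:186967166-186967415 with 11 CpG, *Cyct* on the - strand at chr2:76360454-76360703 with 6 CpG, and *Tex14* on the + strand at chr11:87404815-87405064 with 17 CpG. Capitals mark a match to TTCCCGC or GCGGGAA, the core of E2F sites, of which E2F6 is the PRC1.6 member, and the E-box CACGTG and the CRE TGACGTCA were searched on both strands as well.
D1Pas1: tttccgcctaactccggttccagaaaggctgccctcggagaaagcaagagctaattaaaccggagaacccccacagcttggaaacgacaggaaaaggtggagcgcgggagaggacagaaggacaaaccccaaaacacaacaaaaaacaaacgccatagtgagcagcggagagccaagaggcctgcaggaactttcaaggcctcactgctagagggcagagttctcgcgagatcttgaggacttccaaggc
Cyct: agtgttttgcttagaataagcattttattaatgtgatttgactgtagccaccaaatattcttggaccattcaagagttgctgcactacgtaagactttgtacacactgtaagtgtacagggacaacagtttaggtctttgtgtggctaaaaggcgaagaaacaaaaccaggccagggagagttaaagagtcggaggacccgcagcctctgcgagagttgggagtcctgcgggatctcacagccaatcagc
Tex14: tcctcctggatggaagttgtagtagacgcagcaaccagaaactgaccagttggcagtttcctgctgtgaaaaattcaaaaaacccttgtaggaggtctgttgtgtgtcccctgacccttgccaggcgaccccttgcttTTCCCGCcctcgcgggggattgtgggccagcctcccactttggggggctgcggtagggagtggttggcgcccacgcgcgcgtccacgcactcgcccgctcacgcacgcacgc
*Tex14* held 1 E2F match 112 bases before its start, and the windows of *D1Pas1* and *Cyct* held none of the 3 motifs. Over all called genes, 86 of the 137 higher and 15 of the 33 lower had a promoter in the table, as had 11263 of the tested genes. The E2F core was in 5.81% of the promoters of genes called higher, 6.67% of those called lower and 6.76% of all. The E-box was in 8.14, 13.3 and 8.35%, and the CRE in 3.49, 0 and 2.76%, in the same order. Promoters of the genes called higher held a median of 8 CpG and 56.4% GC, against 15 and 59.6% over all tested genes and 19 and 66.4% for those called lower. A match is a description of the letters and not a bound site.

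*Dnah1*, a heavy chain of the inner dynein arms that move cilia and sperm tails, had the smallest adjusted p of all genes (chromosome 14, 31260375 to 31323896). It stood at 151, 177, 169.8 and 200.3 in WT and 828, 781, 815 and 886 in DM. The 4 DM libraries were within a narrow band 4.72-fold above the WT mean by the fit, at a log2 fold change of 2.24 ± 0.13 (SE, adjusted p = 2.33e-62). Both annotated transcripts were higher in all DM libraries: the non-coding one went from 105 ± 21.8 to 541.0 ± 23.6 and the protein-coding one from 70.1 ± 3.40 to 287 ± 21.4 (SD, n = 4). Of 28 tested genes of axonemal dyneins and motile cilia, 2 were called higher and none lower, where 0.71% of all tested genes were called higher. The other was *Dnah6*, at 90.0, 238, 162 and 144 in WT and 245, 470.0, 216 and 442 in DM. Its groups overlapped, and its log2 fold change was 1.11 ± 0.33 (SE, adjusted p = 0.0931). The list had a median of 0.64 with 25 of 28 members above 0 (50.3% of all tested genes were), and 11 at an unadjusted p under 0.05, as were 1511 of all 19302 tested genes (7.83%). Members with such a p included *Dnah3* (1.64), *Dnah11* (1.45) and *Cfap43* (1.05), which were not called and are named after their values were seen. With ERCC size factors the median of the list was 0.14, with 17 of 28 members above 0. The summed level of the list was 2005 to 2493 in WT and 3226, 4637, 3012.5 and 4467 in DM, highest in DM replicates 2 and 4, the libraries with the most choroid plexus RNA. Without those libraries the median of the list was 0.20, with 20 of 28 members above 0. *Dnah6* was then not called, while *Dnah1* kept an adjusted p of 2.46e-36. Ependymal markers had a median of 0.59 (0.06 with ERCC size factors and 0.47 without DM replicates 2 and 4) and 6 of 6 above 0, and none was called by DESeq2 or edgeR or had an unadjusted p under 0.05 (0 genes). The part of these cells in the ciliary genes was not tested.

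*Cacng6*, a gamma subunit of voltage-gated calcium channels best known from muscle, had the largest log2 fold change of the called genes with a DM mean over 100 (chromosome 7, 3424195 to 3435667). It had 30.4, 27.8, 47.6 and 22.1 in WT and 602, 639, 406 and 493 in DM. Every DM mouse lay far above WT, at a log2 fold change of 4.07 ± 0.34 (SE, adjusted p = 1.94e-28), and both annotated isoforms were higher in all DM libraries, from 23.6 ± 9.99 to 375 ± 80.4 and from 8.39 ± 3.79 to 161 ± 34.5. Of 23 tested calcium channel genes, the other member to rise was the auxiliary subunit gene *Cacna2d4*, with 30.4, 37.4, 23.8 and 39.9 in WT and 60.9, 52.7, 83.2 and 55.3 in DM. The groups did not overlap, and the log2 fold change was 0.93 ± 0.25 (SE, adjusted p = 0.0339). The pore-forming subunit gene with most counts, *Cacna1e*, went from 10395 ± 2796 to 12574 ± 3434 and was not called, nor was *Cacna1a* (0.03), and the median of the 23 was 0.03.

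**Figure D2:**
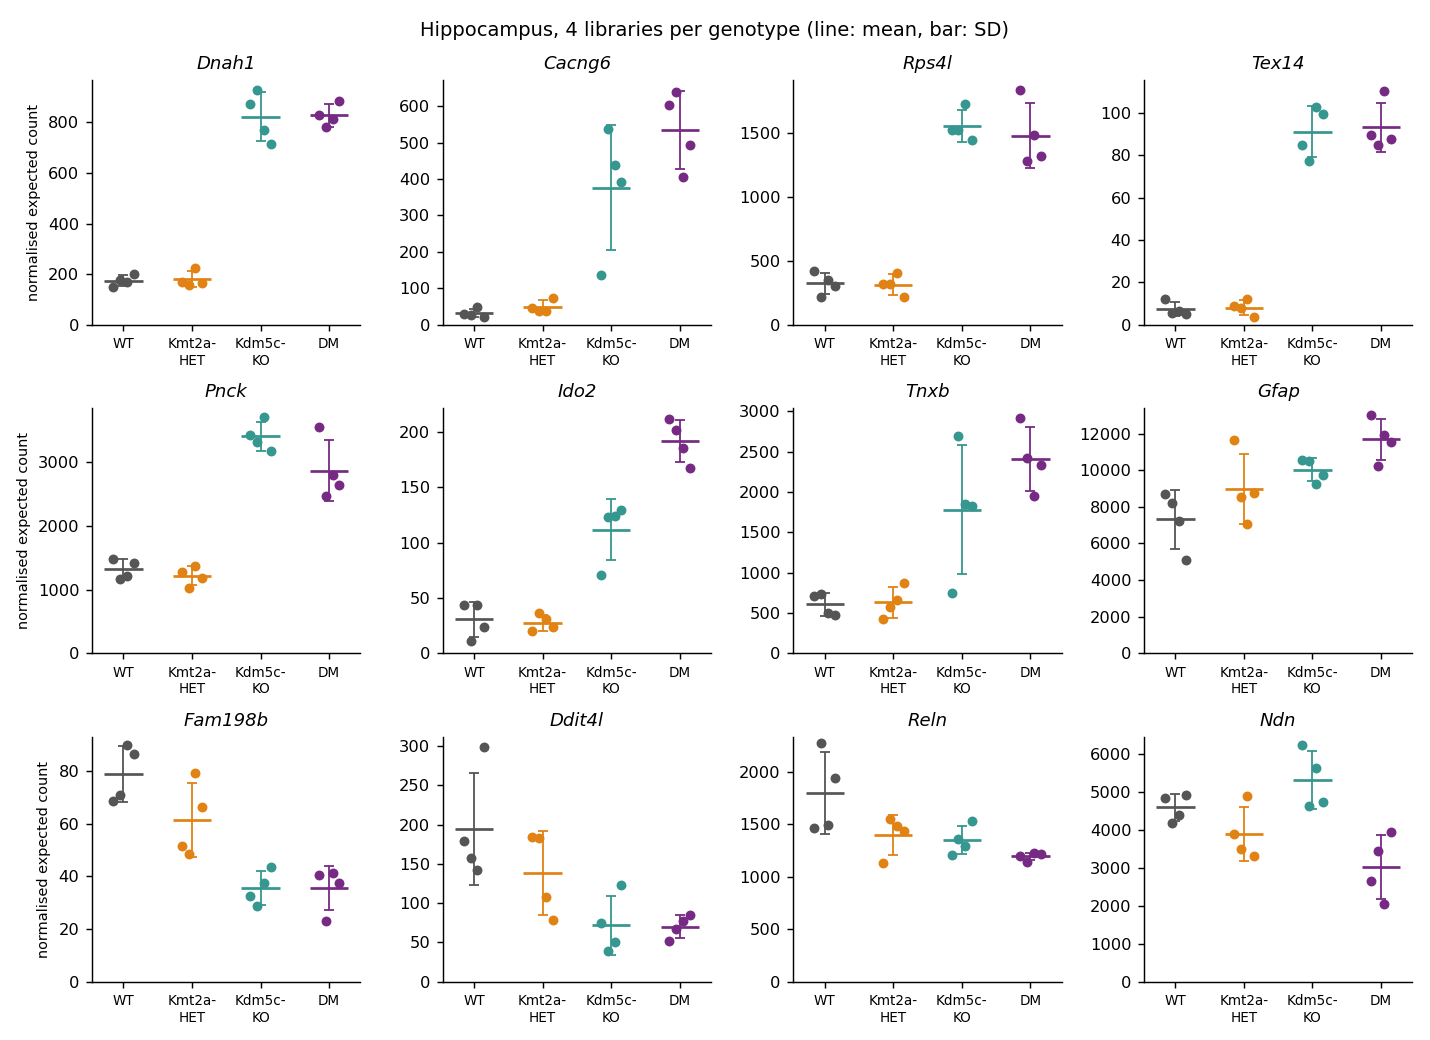
Normalised expected counts (vertical axes, from 0) of 12 genes in the hippocampus of 4 mice per genotype, with a line at the mean and a bar of 1 SD. In Dnah1, Tex14 and Rps4l the DM libraries sit beside those of Kdm5c-KO and away from WT and Kmt2a-HET, while Ndn is lowest in DM.

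*Rps4l*, annotated as a transcribed processed pseudogene of the ribosomal protein S4 family, stood at 422, 221, 354 and 304 in WT and 1838, 1279.6, 1483 and 1326 in DM. The genotypes did not overlap, and the log2 fold change was 2.19 ± 0.19 (SE, adjusted p = 2.01e-26). Its reads can be shared with the expressed ribosomal gene it resembles. None of 78 tested cytosolic ribosomal protein genes was called, with a median of -0.04, and 0 of them had an unadjusted p under 0.05 in DESeq2 or were called by edgeR.

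*Ido2*, a tryptophan dioxygenase at the entry of the kynurenine pathway, had 43.9, 11.5, 43.3 and 23.8 in WT and 212, 202, 186 and 168 in DM. The lowest DM library was well above the highest WT library, at 2.66 ± 0.30 (SE, adjusted p = 6.59e-15). The increase was in transcripts annotated as non-coding: the processed transcript went from 19.4 ± 12.3 to 154 ± 17.5 and the retained-intron transcript from 1.57 ± 3.15 to 37.9 ± 4.09, while the protein-coding transcript had 9.39 ± 11.1 in WT and 0 in all 4 DM libraries. Of the 10 tested kynurenine genes *Ido2* was the only one called, and the median was -0.20. *Kyat1*, *Kyat3* and *Tdo2*, the members with most counts among the rest, differed by -0.24, -0.10 and 0.03. *Haao* and *Qprt*, enzymes later in the pathway, had few counts and differed by 2.10 ± 0.78 (SE, adjusted p = 0.33) and -1.54 ± 0.66 (SE, adjusted p = 0.478).

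*Pnck* and *Zmynd8* were among the 20 genes with the smallest adjusted p. *Pnck*, a calmodulin-dependent protein kinase on the X chromosome, stood at 1489, 1165, 1209 and 1421 in WT and 3560.2, 2473, 2810.1 and 2646 in DM. It rose without overlap, at 1.12 ± 0.13 (SE, adjusted p = 2.77e-15). *Zmynd8*, a reader of histone marks, had 2802, 2556, 2727 and 2754 in WT and 4594, 4849, 3838 and 3984 in DM. The increase was smaller but clear of WT, at 0.67 ± 0.11 (SE, adjusted p = 1.45e-06). The H3K4 enzymes themselves were not called: 0 of 14 methyltransferase complex genes and 0 of 5 demethylase genes, with 2 and 1 at an unadjusted p under 0.05 and 0 called by edgeR, and medians of 0.04 and 0.06. The genes at an unadjusted p under 0.05 were *Setd1b* (-0.29), *Men1* (-0.17) and the targeted *Kdm5c*. Of 21 PRC1.6 and silencer genes none was called, 2 had an unadjusted p under 0.05 and 0 were called by edgeR. Those 2 were *Dnmt1*, the maintenance DNA methyltransferase (-0.25), and *Ring1* (-0.23).

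*Gaa*, *Pgam2* and *Ddo* were also among the 20 genes with the smallest adjusted p. *Gaa*, the lysosomal glucosidase that breaks down glycogen, had 10393, 9549, 9072 and 9488 in WT and 15863, 14550.0, 13674 and 14569 in DM. It was the most abundant of the 20, and rose without overlap, at 0.61 ± 0.10 (SE, adjusted p = 4.45e-07). *Pgam2*, the muscle form of a glycolytic mutase, had 210.3, 181, 172 and 141 in WT and 646, 421, 772 and 531 in DM. All DM mice exceeded all WT mice, at 1.75 ± 0.21 (SE, adjusted p = 5.15e-14). *Ddo*, which degrades D-aspartate, had 174, 168, 227 and 149 in WT and 393, 389, 464 and 448 in DM. The DM values were again separate, by 1.24 ± 0.16 (SE, adjusted p = 6.96e-11). *Stra6* and *Retsat*, a receptor and an enzyme of retinol handling that were picked after their values were seen, rose from 253 ± 54.2 to 671 ± 199 and from 305 ± 24.4 to 436 ± 16.5 (SD, n = 4).

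*Tnxb* and *Col22a1* were called higher as well. *Tnxb*, the matrix protein tenascin X, stood at 715, 736, 499 and 475 in WT and 2914, 2418, 1946 and 2337 in DM. Every DM library was far above WT, and the log2 fold change was 1.99 ± 0.28 (SE, adjusted p = 5.92e-09). *Col22a1*, a collagen of tissue junctions, had 90.0, 64.2, 73.5 and 62.0 in WT and 190.4, 175, 196 and 147 in DM. It changed by 1.30 ± 0.25 (SE, adjusted p = 9.78e-05) and was the only called gene of 43 tested collagen chains, of which 9 had an unadjusted p under 0.05 and 27 were above 0. Their median was 0.15, which turned to -0.42 with ERCC size factors and to -0.19 without DM replicates 2 and 4, where 11 were above 0. *Jsrp1*, a protein of the muscle calcium release complex, rose from 33.9 ± 12.3 to 89.5 ± 19.6, and the neighbouring parvin genes *Parvb* and *Parvg*, whose products link integrins to actin, from 546 ± 28.3 to 936 ± 15.2 and from 312 ± 76.7 to 754 ± 152. *Klk10*, a secreted kallikrein peptidase, was at 19.12, 18.2, 66.0 and 8.49 in WT and 519, 455, 260.2 and 332 in DM. WT replicate 3 was the highest WT library and still far below DM, and the log2 fold change was 3.81 ± 0.70 (SE, adjusted p = 4.74e-05). *Jsrp1*, the parvins and *Klk10* were named after their values were seen.

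Of the astrocyte, microglia and interferon-response lists, the astrocyte list held 1 called gene and the others held none. *Gfap*, the intermediate filament of astrocytes that rises in reactive astrocytes, had 8708, 8229.9, 7216 and 5096 in WT and 13000.0, 10258, 11951 and 11552 in DM. WT replicate 4 was lowest and no library overlapped, at 0.68 ± 0.16 (SE, adjusted p = 0.00628). It was the only called gene of 8 astrocyte markers, whose median was 0.19 (-0.32 with ERCC size factors) and of which 4 had an unadjusted p under 0.05, the others being *Slc1a3*, *Slc1a2* and *Aqp4*. Their summed level was 111010 to 132219 in WT and 121745 to 161315 in DM. *Gpm6b*, *Fam107a* and *Etnppl*, which are abundant in astrocytes and were picked after their values were seen, were called at log2 fold changes of 0.33, 0.44 and 1.498, and the values of *Gpm6b* and *Fam107a* turned negative with ERCC size factors. *Siglech*, a lectin receptor of microglia, stood at 197, 191, 188 and 172 in WT and 319.8, 351, 309 and 294 in DM. Its groups were tight and separate, at 0.77 ± 0.12 (SE, adjusted p = 3.68e-07). *C4b*, a complement component, went from 814 ± 192 to 1643 ± 418, and its reads can be shared with its neighbouring copy. *Slc2a5*, the fructose transporter found on microglia, went from 63.5 ± 5.24 to 109.9 ± 10.5, and both were picked after their values were seen. None of 10 microglial markers was called, 2 had an unadjusted p under 0.05 and 0 were called by edgeR, and their median was 0.13. None of 15 interferon-response genes was called either (1 and 0 by the same counts).

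The remaining genes among the 20 with the smallest adjusted p all separated the genotypes. *Crybb1*, a beta-crystallin, had 90.0, 55.6, 68.1 and 87.4 in WT and 240.3, 219, 203 and 156 in DM. That was a log2 fold change of 1.45 ± 0.24 (SE, adjusted p = 2.67e-06). *Spink8*, a protease inhibitor, had 128, 119.8, 161 and 169 in WT and 503, 368, 368 and 322 in DM. The difference was 1.43 ± 0.23 (SE, adjusted p = 1.06e-06). *Nlrx1*, a mitochondrial receptor of the NOD-like family, had 229, 253, 228 and 253 in WT and 404, 448, 369 and 415 in DM. It changed by 0.76 ± 0.12 (SE, adjusted p = 5.65e-07), and *Gm10686*, a gene on the opposite strand that overlaps it, was called as well (2.41). The library kit marks strand, but whether the counting used it is not given in the sources used here, so reads of the pair may be shared. *Ccdc9b*, *6330403K07Rik*, *Fhad1* and the lincRNA *Gm11681* had log2 fold changes of 0.91, 0.71, 1.69 and 2.60. *Map3k15*, a kinase gene listed as a CA2 marker, was called at 1.601 ± 0.43 (SE, adjusted p = 0.0395) with overlapping groups, at 19.12, 32.6, 69.2 and 8.49 in WT and 107, 142, 52.6 and 87.6 in DM. No other CA1, CA2, CA3 or dentate gyrus marker was called, and the list medians were 0.11, 0.28, 0.24 and 0.13, and -0.02, 0.14, 0.11 and -0.01 without WT replicate 4.

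Decreases were fewer. *Reln*, the secreted glycoprotein reelin made by Cajal-Retzius cells and interneurons, had 1466, 2278, 1493 and 1944 in WT and 1194, 1144, 1223 and 1216 in DM. The 4 DM libraries lay close together below every WT library, at -0.59 ± 0.14 (SE, adjusted p = 0.00689). *Ndnf*, a secreted factor of neurogliaform and Cajal-Retzius cells, had 459, 561, 346 and 326 in WT and 271, 247, 286 and 221 in DM. It fell without overlap, at -0.72 ± 0.18 (SE, adjusted p = 0.0116). *Reln* was the only called gene of 9 interneuron markers, but all 9 were below 0 with a median of -0.40 (-1.09 with ERCC size factors) and 6 had an unadjusted p under 0.05. *Gad1*, the enzyme that makes GABA, was at 5187, 5466, 4758 and 5185 in WT and 4387, 3337, 4724 and 3751 in DM. No library overlapped, and the difference of -0.35 ± 0.12 (SE, adjusted p = 0.255) was not called. Summed over the list, interneuron markers took 15250.0 to 17645 in WT and 13717, 10575, 14765 and 11216 in DM, lowest in DM replicates 2 and 4. Without those libraries the list median was -0.18, while *Reln* was at -0.57 and, with fewer libraries, not called (adjusted p = 0.284). In DM against WT amygdala of the same mice the list median was 0.05. In the hippocampus it was 0.09 in *Kdm5c*-KO against WT and -0.16 in *Kmt2a*-HET against WT. It was 0.26 in *Kdm5c*-KO against *Kmt2a*-HET.

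Further genes fell. *Fam198b* had 68.6, 70.9, 89.8 and 86.6 in WT and 40.6, 23.1, 41.2 and 37.5 in DM. Its groups were separate, at -1.15 ± 0.24 (SE, adjusted p = 9.71e-04). *Alox8*, a lipoxygenase, had 84.4, 78.6, 63.8 and 51.8 in WT and 28.8, 42.6, 26.3 and 24.0 in DM. DM was lower in every mouse, at -1.19 ± 0.26 (SE, adjusted p = 0.00156). *Ddit4l*, an inhibitor of mTOR signalling, had 179, 157, 142 and 299 in WT and 51.6, 67.5, 77.1 and 84.4 in DM. WT replicate 4 was highest, and the difference was -1.47 ± 0.35 (SE, adjusted p = 0.00628), and -1.18 without that library (adjusted p = 0.149). *Igsf21*, an adhesion protein of inhibitory synapses, had 1006, 944, 1207 and 1724 in WT and 572, 712, 609 and 595 in DM. No library overlapped, at -0.97 ± 0.22 (SE, adjusted p = 0.00291), and WT replicate 4 was again highest, without which the difference was -0.76 (adjusted p = 0.0683).

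The other decreases among the 15 with the smallest adjusted p were *Pam*, which amidates neuropeptides (-0.32), *Galnt14*, a glycosyltransferase (-0.41), *Ttll1*, of a tubulin-modifying complex (-0.41), *Rab3b*, a GTPase of synaptic vesicles (-0.95), *Cdh13*, a cadherin (-0.63), *Tmem159* (-0.91) and *Thbs2*, a secreted thrombospondin (-0.89). All 7 separated the genotypes, and without WT replicate 4 *Ttll1*, *Rab3b*, *Cdh13* and *Thbs2* were at -0.36, -0.80, -0.56 and -0.62 and were not called (adjusted p = 0.139, 0.198, 0.149 and 0.437). *Tgm3*, a transglutaminase, had 24.7, 14.4, 30.3 and 121 in WT and 6.77, 12.03, 9.64 and 4.17 in DM. WT replicate 4 stood far above the other WT libraries, and the difference of -2.54 ± 0.57 (SE, adjusted p = 0.0029) was -1.49 without it (adjusted p = 0.152). WT replicate 4 was the highest WT library in 23 of the 33 genes called lower. Without it 101 genes were called, 90 higher and 11 lower, which included 82 of the 137 and 9 of the 33.

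Single genes of other lists fell. *Ndn*, the imprinted gene of necdin, had 4837, 4184, 4401 and 4923 in WT and 2657, 3436, 2047 and 3941 in DM. Every DM library was below WT, at -0.60 ± 0.18 (SE, adjusted p = 0.078), and no other of 30 tested imprinted genes was called. *Kcnc4*, a voltage-gated potassium channel gene, had 2218, 2541, 2043 and 3170.5 in WT and 1463, 1425, 2066 and 1582 in DM. DM replicate 3 overlapped WT, and *Kcnc4*, at -0.61 ± 0.17 (SE, adjusted p = 0.0585), was the only called gene of 82 potassium channel genes. *Efna5*, an ephrin ligand of axon guidance, had 56.2, 136, 93.0 and 365 in WT and 44.0, 53.7, 64.8 and 54.2 in DM. WT replicate 1 overlapped DM and WT replicate 4 stood far above the other WT libraries. The difference was -1.59 ± 0.46 (SE, adjusted p = 0.0784), and -0.82 without WT replicate 4 (adjusted p = 1). With that library *Efna5* was the only called gene of 67 axon guidance genes. Without it *Ndn* and *Kcnc4* were not called either, at -0.57 and -0.47 (adjusted p = 0.393 and 0.542). *Gm765* fell from 89 counts over the WT libraries, most of them in WT replicate 4, to 1 in DM (adjusted p = 0.0395), and without that library it had no adjusted p.

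Several other lists held no called gene. Of 33 glutamate receptor and scaffold genes, 26 GABA and glycine genes, 25 neuropeptide and hormone genes, 25 activity-induced genes, 9 catecholamine genes and 6 genes of the *Apoe* cluster none was called by DESeq2 or edgeR. At an unadjusted p under 0.05 there were 2, 5, 5, 2, 2 and 0 genes in these lists, against 7.83% of all tested genes. *Grik3*, a kainate receptor gene, and *Glra2*, a glycine receptor gene, had -0.83 and -0.83 with unadjusted p of 0.00114 and 0.00183, and were named, as was *Chga*, after their values were seen. *Dlg4*, the scaffold of excitatory synapses, was at 25476 ± 1989 and 26512 ± 2331. *Egr1*, an activity-induced gene, was at 3029 ± 481 and 2782 ± 1279, and its groups overlapped. *Chga*, a granin of secretory vesicles, had -0.32 with an unadjusted p of 0.00148, and the neuropeptide list had a median of -0.32 (-0.88 with ERCC size factors, -0.10 without DM replicates 2 and 4 and -0.19 without WT replicate 4). Of the study list of 10 neuroactive ligand and receptor genes, which the study chose on these samples partly for a small difference between DM and WT, 7 were tested and 0 were called by DESeq2 or edgeR, with 0 at an unadjusted p under 0.05 and a median of 0.01, and nothing is read from these counts because of that choice. *Adcy2* and *Agt*, its members with most counts, differed by -0.06 and 0.57, and *Gabre*, with few counts and named after its values were seen, had the highest value of the 7, at 1.78. None of 79 respiratory chain genes was called (1 at an unadjusted p under 0.05, 0 by edgeR).

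**Figure D3:**
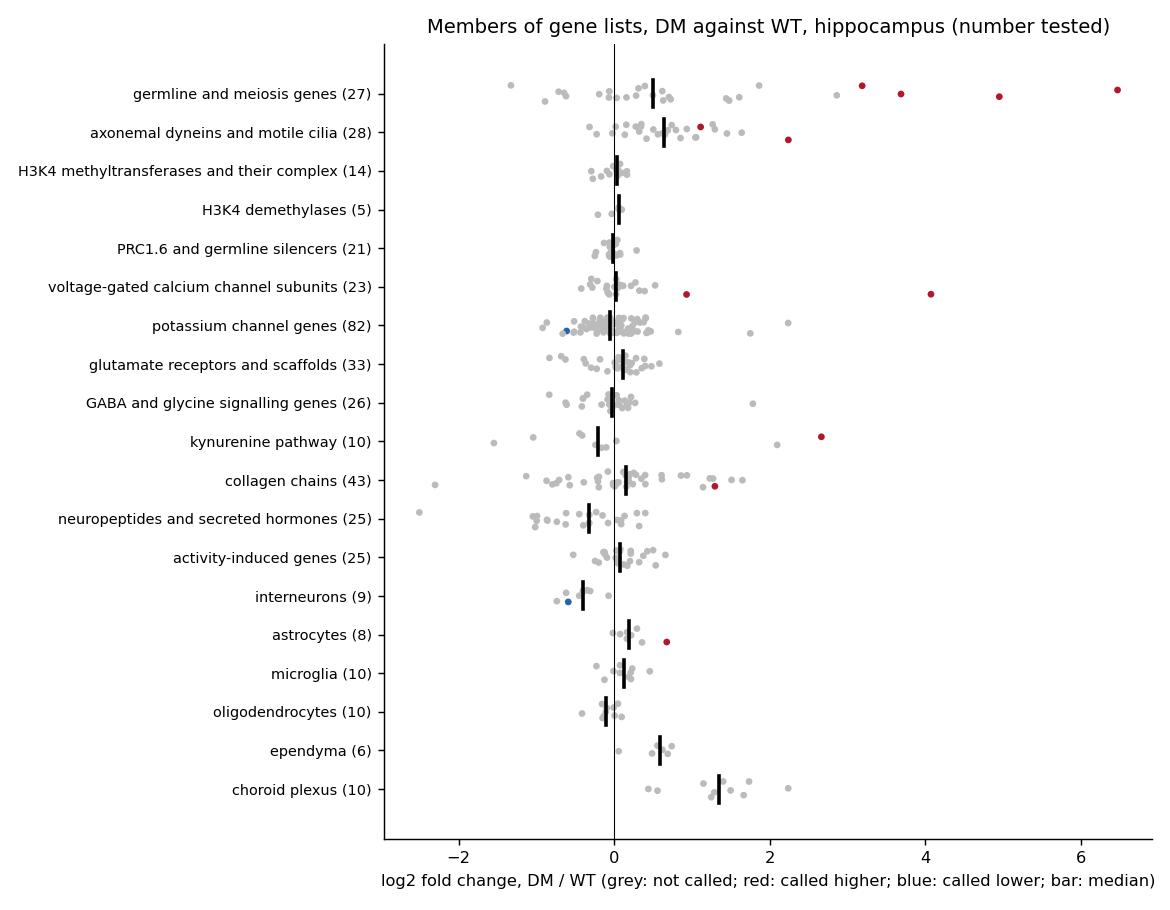
Log2 fold change of DM over WT (horizontal axis) of every tested member of 19 gene and marker lists, with the number tested in brackets, called genes in red or blue and a bar at the list median. The ciliary list lies mostly above 0 with a median of 0.64 (0.14 with ERCC size factors), interneuron markers lie below 0, and the H3K4 enzyme lists stay near 0.

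Each single mutant was set beside DM, and since these comparisons share the WT or the DM libraries their values are only given side by side. The 137 genes called higher in DM had a median log2 fold change of 0.94 in *Kdm5c*-KO against WT, where 82 of them were called (1.01% of tested genes were called there, 0.829% as higher), and of 0.16 in *Kmt2a*-HET against WT, where 0 were called. For the 33 genes called lower the medians were -0.33, with 7 called, and -0.31, with 0 called. *Kmt2a*-HET against WT gave 0 calls of 29841 genes in DESeq2 and 0 in edgeR, with 715 genes at an unadjusted p under 0.05. In direct tests of DM against *Kdm5c*-KO, 2 of 29841 genes were called (0.0067%), *Ndn* and *Cmbl*, both lower in DM, and 0 by edgeR. None of the 137 was among them, with 26 at an unadjusted p under 0.05 and 0 called by edgeR, and their median was 0.15. Of the 33, *Ndn* was called, at -0.81, with 14 at an unadjusted p under 0.05. Against *Kmt2a*-HET, 70 of the 137 were higher in DM and 3 of the 33 lower, where 0.606% of genes were called, 0.528% as higher.

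The values of individual genes in *Kdm5c*-KO and *Kmt2a*-HET are given beside DM. Of the genes named here only *Ndn* was called between DM and *Kdm5c*-KO. *Tex14* was at 91.1 ± 12.04 in *Kdm5c*-KO and 8.12 ± 3.47 in *Kmt2a*-HET (SD, n = 4), so DM and *Kdm5c*-KO means nearly coincided. *Dnah1* was at 822 ± 96.9 and 180.4 ± 31.1. *Ido2* was at 112 ± 27.7 and 27.5 ± 7.40, with a log2 fold change of DM over *Kdm5c*-KO of 0.78, which was not called. *Pnck* was at 3414 ± 229.7 and 1218 ± 148, with -0.25 for the same difference, not called either. *Ndn* was at 5309.8 ± 766 and 3889.7 ± 705, both above the DM mean of 3020.2 ± 837. *Gpm6b* was at a log2 fold change of 0.09 in *Kdm5c*-KO and of 0.13 in *Kmt2a*-HET, below its DM value, and its difference from *Kdm5c*-KO was not called (adjusted p = 0.569).

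*Kdm5c*-KO was fitted against *Kmt2a*-HET on their 8 hippocampal libraries alone, none of which is a WT or DM library. These 8 had entered the 16-library fit that made the 170 calls, where they shared in its size factors, dispersions and filtering, and the 8 WT and DM libraries alone gave 323 calls, which held 129 of the 137 and 28 of the 33. *Kdm5c*-KO against *Kmt2a*-HET is a contrast that differs in *Kdm5c* in the same direction and in *Kmt2a* in the opposite direction. Of 19697 genes, 248 were called (1.26%), 210 higher (1.07%) and 38 lower (0.193%). Of the 137 genes higher in DM, 125 (91.2%) had the same sign, against 48.3% of all tested genes above 0, 57 were called in the same direction and 0 in the opposite one, with a median of 0.68. Of the 33 genes lower in DM, 18 (54.5%) had the same sign, against 51.7% of all tested genes below 0, and 1 was called, *Ndnf* at -0.66, with a median of -0.05. *D1Pas1*, *Tex14*, *Cacng6* and *Dnah1* were at 5.09, 3.45, 2.94 and 2.18 and were all called. *Gfap* and *Gpm6b* were at 0.16 and -0.04 and were not called. Choroid plexus markers differed between these libraries as well, with a median of 4.18. So did markers of the pituitary (1.64), hypothalamus (1.49, with 2 tested), ependyma (1.05), striatum (0.90), dentate gyrus (-0.91), thalamus (-0.54) and CA1 (-0.49). The part of all these markers in the counts was not tested.

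**Figure D4:**
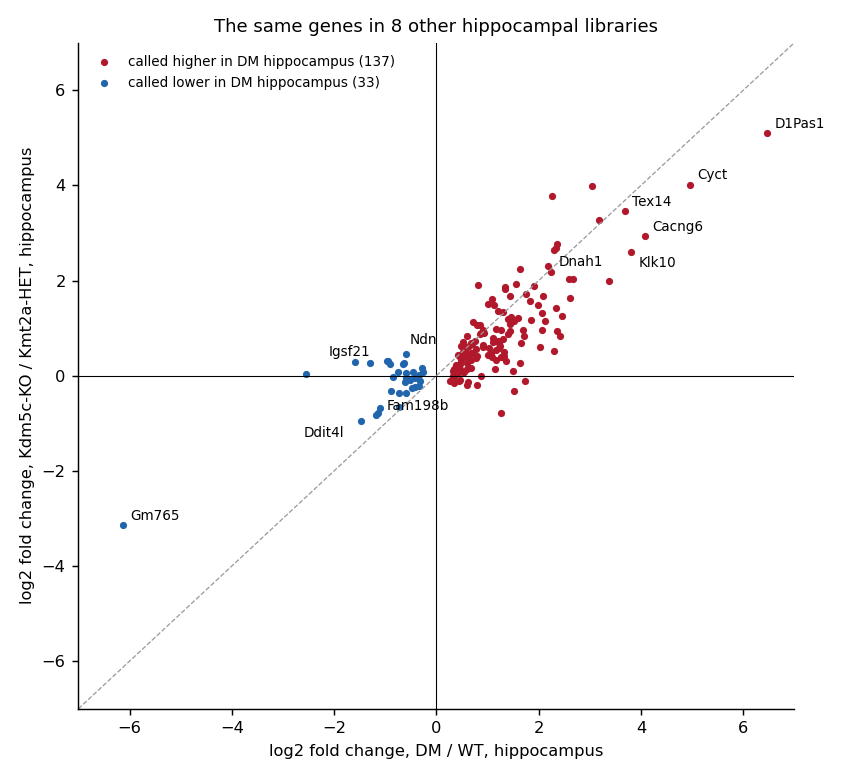
Log2 fold change in 8 other hippocampal libraries, Kdm5c-KO over Kmt2a-HET (vertical axis), against that of DM over WT (horizontal axis) for the 170 called genes, with a dashed line of equal values. Genes higher in DM (red) lie above 0 in 125 of 137 cases, while genes lower in DM (blue) lie on both sides of 0.

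The amygdala of the same mice was compared next, which adds other libraries but not other animals. There 211 of 21314 genes were called between DM and WT (0.99%), 196 higher (0.92%) and 15 lower (0.0704%). Of the 137 genes higher in DM hippocampus, 129 (94.2%) were above 0 in the amygdala, against 46.4% of all tested genes, 56 were called, and the median was 0.62. Of the 33 lower in DM hippocampus, 31 (93.9%) were below 0, against 53.6% of all, 0 were called by DESeq2 or edgeR, 6 had an unadjusted p under 0.05, and the median was -0.20. Choroid plexus markers had a median of 3.04 in DM over WT amygdala, ependymal markers 0.92 and pituitary markers 0.98, and their part in these counts was not tested. In the amygdala *Tex14* changed by 3.50 (log2). *Cyct* and *D1Pas1* had almost no counts in WT of either region, with means of 0.517 ± 0.598 and 0.239 ± 0.478 in WT amygdala and 12.9 ± 3.71 and 25.8 ± 12.2 in DM amygdala (SD, n = 4), so their fold changes are not compared between regions.

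A few genes changed in the hippocampus by more than in the amygdala, by a test of the difference in 1 fit of all 32 libraries that was added after the data were seen. It called 4 of 32039 genes (0.0125%), 3 of which were higher in DM hippocampus. *Cacng6* stood at 65.3, 16.5, 22.6 and 10.5 in WT amygdala and 43.3, 33.7, 38.8 and 57.1 in DM amygdala. These groups overlapped, and the hippocampal log2 fold change exceeded the amygdala one by 3.49 (adjusted p = 2.78e-05). *Ido2* stood at 15.8, 31.1, 31.3 and 27.7 in WT amygdala and 27.6, 32.8, 28.9 and 33.4 in DM amygdala. The groups overlapped and *Ido2* was not called there, and the difference between regions was 2.46 (adjusted p = 2.78e-05). *Pnck* stood at 3159, 2912, 2142 and 1913 in WT amygdala and 3266, 2531, 2503 and 3613 in DM amygdala. The groups overlapped, and the difference was 0.89 (adjusted p = 0.0748). The fourth, *E130208F15Rik*, was not called in the hippocampus. With a block for the mouse, since both regions of a mouse carry 1 number, 15 genes were called (0.0795%), and these included *Dnah1*, *Parvg*, *Tnxb*, *Ddo* and *Ddit4l*, named after their values were seen. *Dnah1* rose in both regions, from 318, 597, 413 and 459 to 1036, 1249, 965 and 1023 in the amygdala. *Tnxb* had an amygdala log2 fold change of 0.55, which was not called, and its difference between regions was 1.44 without the block and 1.41 with it (adjusted p = 0.868 and 0.00346).

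**Figure D5:**
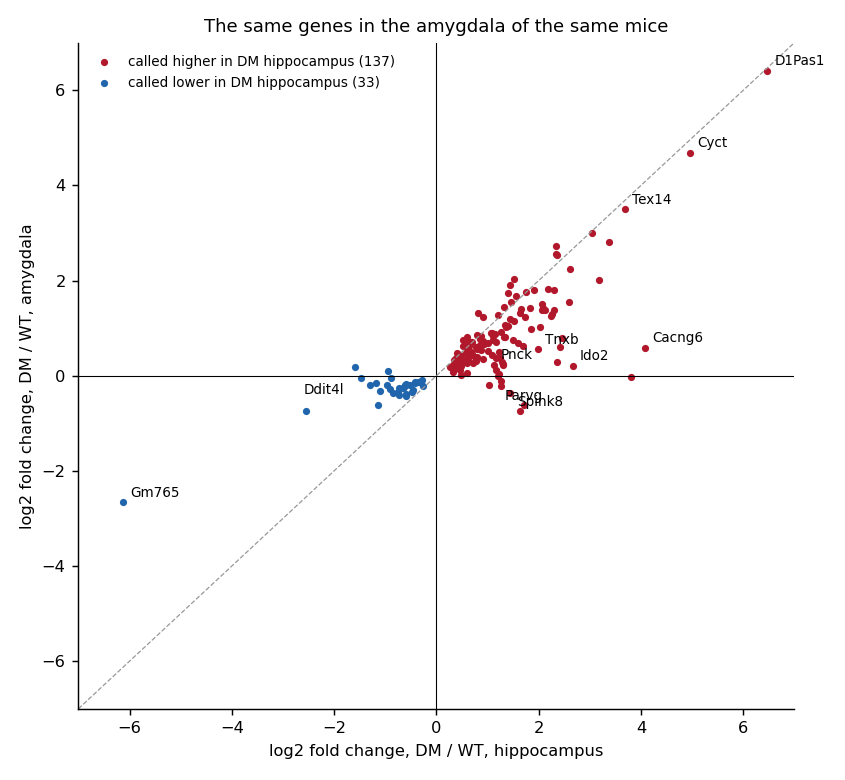
Log2 fold change of DM over WT in the amygdala (vertical axis) against that in the hippocampus (horizontal axis) for the 170 called genes of the same mice, with a dashed line of equal values. Tex14 lies near the line, while Cacng6, Ido2 and Pnck lie below it.

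DNA next to a targeted allele is inherited with it, so the called genes were placed on the genome. Within 5 Mb of *Kmt2a* on chromosome 9, 4 of 128 tested genes were called (3.12%, against 0.881% of all tested genes), namely *Nlrx1*, *2900052N01Rik*, *Gm31614* and *Gm10686*, all higher. The lincRNA *2900052N01Rik* stood at 1727, 2039, 2023 and 1825 in WT and 3196, 3996, 4848 and 5089 in DM. All DM libraries were above WT, at 1.17 ± 0.21 (SE, adjusted p = 3.11e-05). In *Kdm5c*-KO, which carries no *Kmt2a* deletion, it was at 4280.2 ± 1698, and in *Kmt2a*-HET at 2154 ± 378. *Nlrx1* was at 361 ± 28.2 and 218 ± 36.2. The genes *Nlrx1* and *Gm10686* overlap, and *Gm31614* and *2900052N01Rik* lie 75.9 kb apart. Within 5 Mb of *Kdm5c* on chromosome X, 0 of 42 tested genes were called. Within 10 Mb, 1 of 77 tested genes was called near *Kdm5c* (1.3%), *Map3k15*, and 4 of 224 near *Kmt2a* (1.79%). A part of linked sequence in these differences was not tested.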

How the data were processed

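Hippocampal mRNA of 4 mice per genotype was sequenced by the study with directional, oligo-dT primed libraries and ERCC spike-in RNA. The authors deposited expected counts per gene and per transcript for each region, named as such and with non-whole values. The submitters' processing notes name STAR 2.5.3a, Subread 1.5.0 with featureCounts, DESeq2 1.14.1, deepTools 3.1.3 and the mm10 build, and the estimator of the expected counts and the annotation release are not given in the sources used here. Each column matched 1 sample, and 0 columns of values were left unmatched.

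Expected counts were rounded to whole numbers, and 92 ERCC rows were left out of library sizes and tests. Symbols were matched for 53620 of 53715 genes. All 16 hippocampal libraries entered 1 fit of genotype in DESeq2 1.42.0 (R 4.3.3), whose Wald test, Benjamini-Hochberg adjusted p and unshrunken log2 fold changes are reported at a threshold of 0.1. Kdm5c-KO against Kmt2a-HET was fitted on 8 libraries. Single genes were named as Kmt2a and Kdm5c, the 20 genes called higher and 15 called lower with the smallest adjusted p, called members of the gene lists and up to 3 further members of a list with the highest mean, and others are said to be chosen after their values were seen. The members and gene lists were chosen with earlier results of these data known. Alternatives were edgeR 4.0.16, ERCC or TMM size factors, other filters and thresholds, a replicate block and leaving out libraries. Some genes that the naming rule would include are not reported here.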

Additional observations from a re-analysis of the deposited data

Results flagged for a closer look

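In each group of 4 libraries, the highest or lowest value was compared with its nearest neighbour relative to the range of the group. By Dixon's test at its 95% critical value 4 of 166 groups held such a library, where chance gives about 1 in 20 groups. WT replicate 4 was high for *Tgm3*, at 120.5 normalised counts, and for *Gm765*, at 67.04. *Gm765* was at 1.042 in DM replicate 4 and at 0 in the other DM libraries. The summed astrocyte markers were lowest in DM replicate 1, at 121745 normalised counts.

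The DM effect differed between hippocampus and amygdala for 4 genes in a test of the difference that was chosen after seeing the data. The hippocampal log2 fold change exceeded that of the amygdala by 3.489 for *Cacng6*, 2.465 for *Ido2* and 0.8936 for *Pnck*. For *E130208F15Rik* the difference was -22.75, from 2 amygdala DM libraries with 35.4 and 39.8 normalised counts where the other 2 and all WT amygdala libraries were at 0, and it was not called with the mouse block (adjusted p = 0.221).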

How the results depend on the processing

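The 170 calls depended on the processing. Genes called numbered 6 with ERCC size factors, 63 with edgeR and TMM, 323 with only WT and DM libraries, 293 with a term for the libraries numbered 1 and 90 without DM replicates 2 and 4, and 101 to 261 when 1 library was left out. Genes called higher numbered 6, 56 and 71 with ERCC size factors, edgeR and without DM replicates 2 and 4, and 90 to 173 when 1 library was left out. Genes called lower numbered 16 at an adjusted p under 0.05, 0 with ERCC size factors, 7 with edgeR, 21 without independent filtering, 119 with only WT and DM libraries, 93 with the term for libraries numbered 1 and 19 without DM replicates 2 and 4, and 11 to 107 when 1 library was left out, the lowest without WT replicate 4 and the highest without WT replicate 2. Increases made 80.6% of the calls, but 63.2% with only WT and DM libraries, 68.3% with the term for libraries numbered 1, and 59.0% without WT replicate 2. With ERCC size factors *Fam107a* turned to -0.11 and *Gpm6b* to -0.15. The cause of these changes was not tested. Leaving out DM replicates 2 and 4 or Kdm5c-KO replicate 1 was chosen after seeing the data.

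Same-numbered WT and DM libraries correlated at 0.33, 0.15, -0.11 and -0.15 in their deviations, so not every number paired its samples, by the rule that all 4 exceed 0.1. The term for libraries numbered 1 was taken over from earlier results of these data. All 4 of these libraries were below 0 on PC3, as were 3 others, and they had the 4 lowest values of long relative to short genes among the 16. With a replicate block 464 genes were called, 305 higher and 159 lower (65.7% higher), which held 130 of the 137 and 30 of the 33. The block in edgeR called 62, 55 and 7, and the block with a low-count filter called 50 lower.

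In Kdm5c-KO against Kmt2a-HET, the genes higher in DM that were called numbered 27 with ERCC size factors and 16 with edgeR, and 41 to 52 when 1 library was left out. Those lower in DM numbered 0 with ERCC size factors, 0 with edgeR and 3 with all 16 libraries, and 1 to 2 when 1 library was left out. In the amygdala, those lower in DM numbered 1 with the replicate block and 0 to 2 when 1 library was left out. Within 1 Mb of *Kmt2a* 2 genes were called, and within 10 Mb of *Kdm5c* 1. The mouse block raised the genes that differed between regions to 15.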
